A study of Mus musculus with 2 samples.

Results

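Capg and 7 other genes for proteins that cap or sever actin filaments were followed in spleen RNA of 2 mouse genotypes. The 8 genes were taken by symbol from a table of 22216 gene rows. They are Capg, its relatives Gsn, Scin, Flii and Svil, and the CapZ subunit genes Capza1, Capza2 and Capzb. The set was built around Capg because of its difference between these same libraries, so every value for Capg is a description and none is a test.

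The genotypes are NOD.g7 and NOD.L7, and both carry the name of the non-obese diabetic (NOD) mouse, an inbred strain prone to autoimmune diabetes. Each was sequenced as 1 library from spleens of 3 mice pooled together. In the text below, a pair of values gives the NOD.g7 library first and the NOD.L7 library second. The labels give no treatment, age or sex and do not say what g7 or L7 stand for. The deposited columns are headed NOD and NOD.LC7, and the second was read as NOD.L7 because of its suffix. The tissue label was checked against lymphocyte genes, all 20 of which were kept, with Cd79b at 651 and 511 RPKM. This check cannot tell spleen from other lymphoid tissue. RPKM scales reads to gene length and library size, so levels can be set side by side between genes. From the step size of the lowest values, 9.13 Gb and 12.1 Gb of sequence lay behind the libraries.

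Actin filaments grow mainly at their barbed ends, and capping proteins stop that growth. CapZ, a heterodimer of an alpha and a beta subunit, is the general barbed-end capper of most cells. Proteins of the gelsolin family are built from a shared repeat and are regulated by calcium and phosphoinositides. Gelsolin and scinderin cut filaments and then cap them, whereas CapG caps without cutting and is known as an abundant protein of macrophages.

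Capg was the one gene of the set that differed strongly between the libraries. Its RPKM was 37.3 in the NOD.g7 library, and 122 in that of NOD.L7, which is 3.28-fold higher. The 95% counting interval of that fold was 3.14 to 3.43, from about 2380 and 10348 fragments. The log2 ratio of NOD.L7 to NOD.g7, computed on RPKM + 1, was 1.69. With 1 library per genotype there is no replicate check, and the intervals given here cover counting error and leave out variation between mice. In whole spleen, more cells of a type and more RNA per cell cannot be told apart.

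A gene was kept when its RPKM reached 1 in either library, and it passed the size rule when its log2 ratio was at least 1 in either direction. Of the 8 genes 7 were kept, and 1 of them, Capg, passed. Of all 11141 kept genes, 79 passed (0.709%), 43 of them higher in NOD.L7 (0.386%) and 36 lower (0.323%). These shares are given for scale only, since the difference in Capg is what the set was chosen on. In the ranking of log2 ratios from high to low, Capg was number 7. Of 1792 kept genes that reached the NOD.g7 level of Capg in either library, 9 passed, and 2 of them, Capg included, had a ratio at least as high as that of Capg. By level, Capg moved from rank 1716 of all rows in NOD.g7 to rank 289 in NOD.L7.

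**Figure D1:**
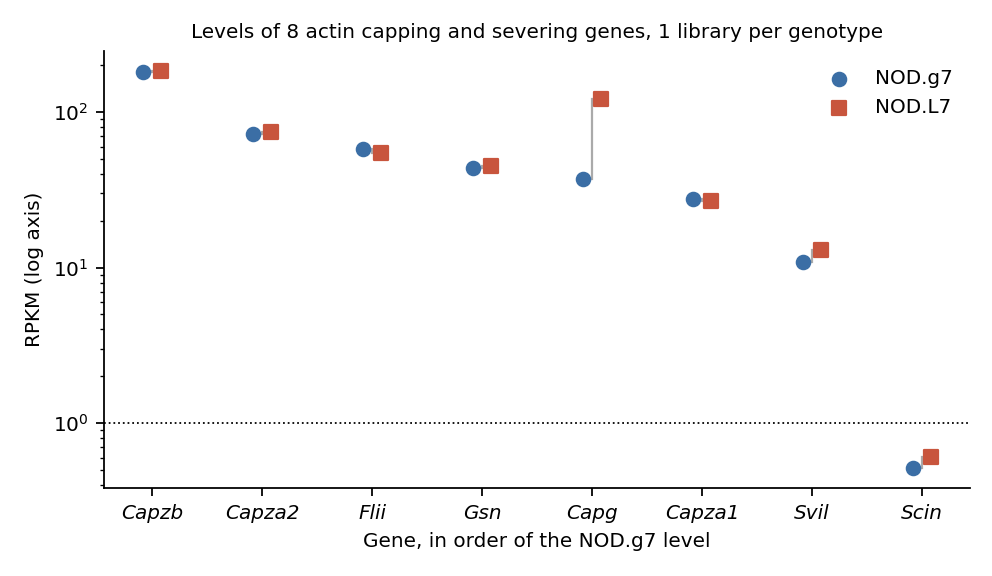
RPKM of the 8 genes on a log axis, with circles for the NOD.g7 library and squares for the NOD.L7 library, in order of the NOD.g7 level. The dotted line marks an RPKM of 1. Capg moved from 37.3 to 122, while each of the other genes had nearly the same level in both libraries and Scin lay below the line in both.

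The genes of the severing proteins had close values in both libraries. Gsn, which encodes gelsolin, was at 43.8 and 45.3, and its fold of 1.04 had a counting interval of 0.999 to 1.07. Scin, which encodes scinderin (adseverin), was the 1 gene of the set below the filter, at 0.511 and 0.602. About 70 and 109 fragments stood behind these values, so its fold of 1.18 had a wide interval of 0.863 to 1.61. A difference of that size was not detectable for Scin at this depth.

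Flii and Svil encode larger relatives with gelsolin-like repeats. Flightless I, the product of Flii, joins such repeats to leucine-rich repeats, and supervillin, the product of Svil, ties actin and myosin to membranes. Flii was slightly lower in NOD.L7, at 57.5 and 55.0, a fold of 0.956 (counting interval 0.932 to 0.981). Svil was at 10.9 and 12.9, a fold of 1.18 (1.14 to 1.23), the next highest ratio after Capg among the kept genes of the set. Its log2 ratio was 0.22, and 84.2% of all kept genes had a ratio closer to 0. For both genes the counting interval excluded 1, but neither was near the size rule, and the spread between mice is unknown.

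The CapZ subunit genes were at nearly equal levels in the libraries. Capzb, the beta subunit gene, was the most abundant gene of the set, at 181 and 184. Capza2 was at 72.2 and 74.8, and Capza1 at 27.6 and 26.6. The alpha subunit genes together came to 99.9 and 101, and the ratio of alpha to beta was 0.551 and 0.550. Capza2 was the main alpha transcript in both, at 2.62 and 2.81 times the level of Capza1. Capza1 and Capza2 are close paralogs, and how reads with several matches were counted is not given in the sources used here, so their split is uncertain. In GENCODE M21 Capza1 also overlaps St7l, and Flii overlaps Llgl1 at its edge, each on the other strand, so reads of these partners cannot be told apart without strand.

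Leaving Capg aside, the 6 other kept genes had log2 ratios from -0.06 (Flii) to 0.22 (Svil), with a median of 0.04. The median over the 7 kept genes was 0.05, and over all 11141 kept genes it was 0.02. For comparison, 86.4% of all kept genes lay within 0.25 of 0. The 6 genes thus spanned a narrow band, and none of them reached the size rule.

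**Figure D2:**
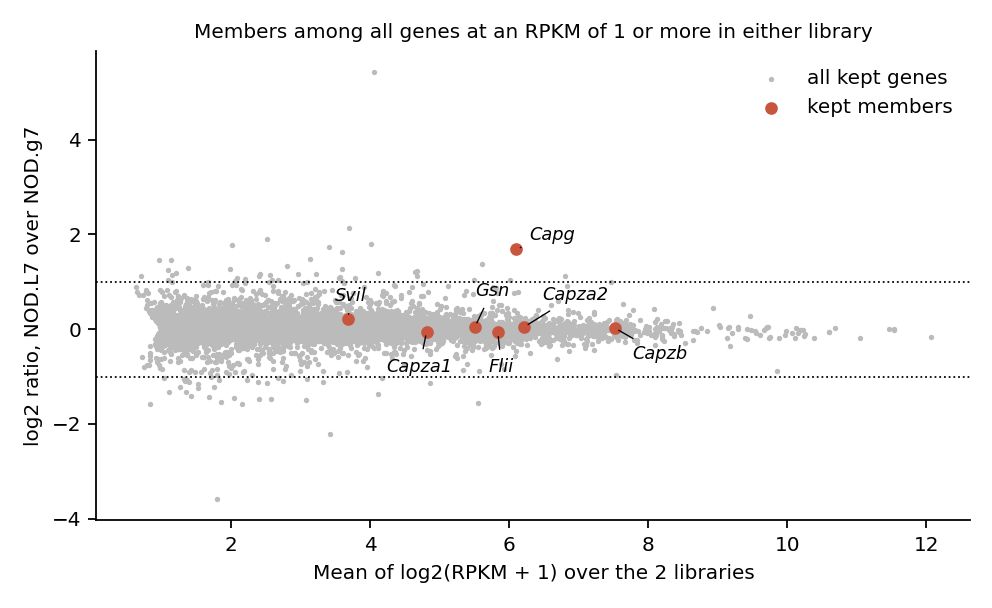
Log2 ratio of NOD.L7 to NOD.g7 against the mean of log2(RPKM + 1) for all 11141 kept genes (grey) and the 7 kept genes of the set (red). Dotted lines mark the size rule. Capg stands at 1.69, and the other 6 genes lie between -0.06 and 0.22.

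The makeup of the gelsolin family transcripts differed, and Capg was the gene that moved. Capg made up 24.8% of the summed RPKM of Capg, Gsn, Scin, Flii and Svil in NOD.g7, against 51.8% in NOD.L7. The family sum was 1.57 times as high in NOD.L7, at 236, whereas without Capg it was 113 and 114. Set against gelsolin, Capg was at 0.851 and 2.70 times the level of Gsn. Set against CapZ, it was at 0.206 and 0.664 times the level of Capzb. Thus in NOD.g7 Capg stood below Gsn, Flii, Capza2 and Capzb, and in NOD.L7 Capzb alone of the set stood above it. Relative to beta-actin, Capg came to 13.1 and 43.1 per 1000 RPKM of Actb. Actb itself was at 2840 and 2839.

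Capg lies on chromosome 6 (72494433 to 72512972, build mm9, as in the table). The 8 genes lie on 7 chromosomes, and Capza2, the other one on chromosome 6, is far from Capg. The 5 kept genes on either side of Capg were examined. None of these 10 passed the size rule, but the neighbours directly after Capg, Elmod3 and Retsat, had ratios of 0.63 and -0.68. Over all kept genes 4.1% had a ratio of at least 0.5 in either direction, 2.52% upward and 1.58% downward.

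Elmod3, whose product belongs to the ELMO domain family, lies on the minus strand in RefSeq. Its gene end is therefore the side nearest to Capg, 2949 bases from the end of Capg. Elmod3 was at 5.54 and 9.13, a fold of 1.65 (counting interval 1.5 to 1.81). Retsat, the gene for retinol saturase, was at 5.07 and 2.79, which is 1.82-fold lower in NOD.L7. Elmod3 and Retsat point away from each other in the RefSeq annotation, and 286 bases separate them in the table. They thus differed in opposite directions on either side of a shared start region. In GENCODE M21 Retsat overlaps Gm45053 on the other strand, and whether the counting used strand is not given, so its value can include antisense reads.

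The remaining 8 neighbours were closer to equal. Vamp5 had the lowest ratio of them, -0.33, at 6.53 and 4.98. Rnf181 had the highest, 0.16, at 43.1 and 48.1. Vamp8 (67.0 and 65.0), Ggcx (4.2 and 4.68) and Mat2a (63.8 and 63.3) lie before Capg. Tgoln1 (39.3 and 38.4) and Kcmf1 (17.6 and 18.6) lie after it. So does Tmsb10, which encodes the actin monomer binder thymosin beta 10, at 131 and 125. Within 1 Mb of Capg there were 21 other kept genes with a median of 0.02, and Elmod3 and Retsat were the 2 with a ratio of 0.5 or more in either direction. After Capg, the nearest gene past the size rule on the chromosome was Suclg2, 22.9 Mb away. The nearest such gene before Capg was not looked up. On chromosome 6 as a whole, 14 of 555 kept genes passed (2.52%), Capg included, beside 0.709% of all kept genes. Within 5 Mb of Capg, 4 of 28 other kept genes had a ratio of 0.5 or more in either direction, and 0 passed the size rule. Around the other 7 genes of the set, the numbers of adjacent kept genes with a ratio of 0.5 or more were 1 for Capza1, 1 for Capza2 and 0 for the others, and none of them passed the size rule.

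**Figure D3:**
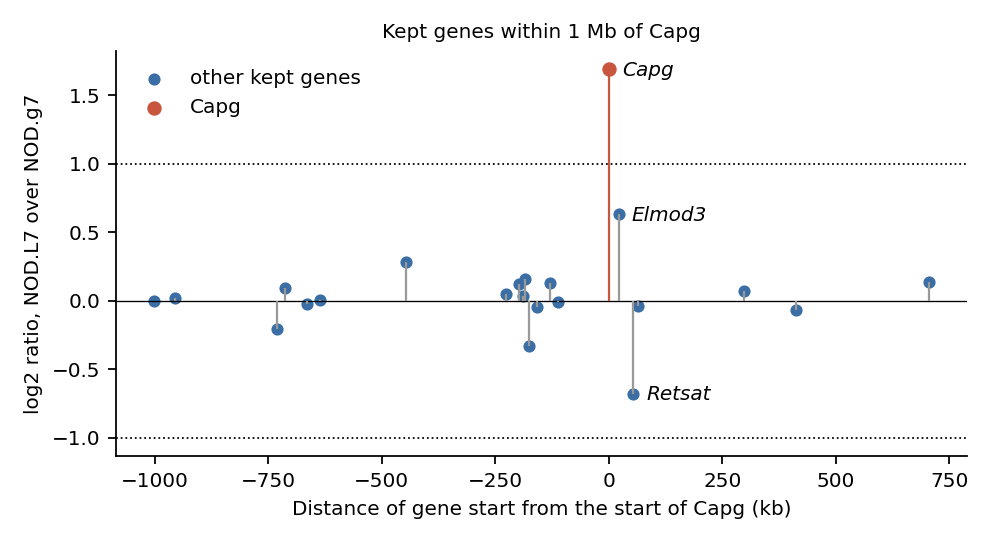
Log2 ratio of each kept gene within 1 Mb of Capg, plotted at the distance of its start from the start of Capg in kilobases. Dotted lines mark the size rule. Capg stands at 1.69, Elmod3 and Retsat directly after it at 0.63 and -0.68, and the other genes lie between -0.33 and 0.28.

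The start regions are shown for the gene that differed, for a CapZ gene that did not, and for the region between Elmod3 and Retsat. Each is the RefSeq window of 250 bases before to 50 after a start site, in build GRCm38.p6, on the gene's own strand, and capitals mark CpG dinucleotides. The Capg window is chr6:72549397-72549696 (plus strand), that of Capza2 is chr6:17636760-17637059 (plus strand), and that of Retsat is chr6:72598352-72598651 (plus strand).
Capg: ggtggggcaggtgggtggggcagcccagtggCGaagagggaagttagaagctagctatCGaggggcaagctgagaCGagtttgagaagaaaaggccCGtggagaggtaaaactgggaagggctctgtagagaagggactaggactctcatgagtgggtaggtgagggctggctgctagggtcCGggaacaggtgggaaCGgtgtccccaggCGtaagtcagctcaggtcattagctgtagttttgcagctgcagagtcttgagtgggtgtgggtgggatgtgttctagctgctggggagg
Capza2: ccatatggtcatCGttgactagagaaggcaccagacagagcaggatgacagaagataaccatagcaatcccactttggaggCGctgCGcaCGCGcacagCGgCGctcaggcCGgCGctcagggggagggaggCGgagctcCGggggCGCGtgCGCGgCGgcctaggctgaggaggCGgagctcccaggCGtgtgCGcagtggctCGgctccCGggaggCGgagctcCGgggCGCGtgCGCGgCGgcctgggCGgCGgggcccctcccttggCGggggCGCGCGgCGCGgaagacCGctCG
Retsat: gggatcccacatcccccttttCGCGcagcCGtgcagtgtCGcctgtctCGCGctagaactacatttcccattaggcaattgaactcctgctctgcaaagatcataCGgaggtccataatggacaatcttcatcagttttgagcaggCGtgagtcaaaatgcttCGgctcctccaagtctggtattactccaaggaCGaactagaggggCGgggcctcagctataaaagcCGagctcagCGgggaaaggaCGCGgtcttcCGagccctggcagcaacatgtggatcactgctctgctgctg

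The Capg window held 7 CpG, equal to the median of 7 over 32851 RefSeq windows of this length. Capza2 held 38, and 4.45% of the windows held more. Capza1 held 21, Capzb 14, Flii 26 and Scin 16, so Capg had the fewest CpG of these 6 genes. The 3 windows of Gsn held 20, 2 and 16. Windows were examined for 7 genes of the set. Svil, on chromosome 18, was left out of the windows and of the motif search below. The start in the Capg window lies 13.3 kb before the end of the gene in RefSeq, while the gene spans 18.5 kb in the deposited table. The table's gene model therefore begins further upstream, and the level cannot be assigned to one start.

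Motif matches in these windows were few. The PU.1 core GAGGAA, searched on both strands, matched 2 times in 1 Gsn window. It matched in no other examined window of the set, against 28.3% of all windows with a match. The AP-1 site TGACTCA, on both strands, matched in none of the examined windows of the set and in 5.20% of all windows. It matched 1 time in the Retsat window and in the overlapping Elmod3 windows. The CArG box of serum response factor matched in none of these windows and in 1.63% of all. A match is a description of letters and does not show binding.

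Transcripts for the rest of the actin machinery differed little. Beyond the 8 genes, 96 genes of actin regulation were listed, in groups by role, and 80 of them were kept. Of these 39 had a higher and 41 a lower value in NOD.L7. Their median log2 ratio was near 0 (-0.001), beside 0.02 for all kept genes. None passed the size rule at the pseudocount of 1 RPKM, and 1, Add2, had a ratio of 0.5 or more in either direction. Without a pseudocount Add2 was 3.38-fold lower in NOD.L7, past the 2-fold of the rule. For this low gene the outcome thus depends on the pseudocount. In all 92.5% lay within 0.25 of 0, beside 86.4% of all kept genes.

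Closest in role to Capg are the other family members and CapZ subunits, and none was kept. Avil, which encodes advillin, was at 0.286 and 0.426, Vil1, for villin, at 0.0236 and 0.0411, and Vill and Capza3 were listed at 0 in both libraries. Regulators of CapZ, such as CARMIL proteins, myotrophin and CapZIP, were all kept. Of the 10, 6 were higher and 4 lower, with a median of 0.02, and the most abundant was Rcsd1, the gene for CapZIP, at 109 and 111. The lowest ratio in that group, -0.32, was that of Lrrc16a (now Carmil1), at 6.05 and 4.66.

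Other proteins that cap filament ends, the adducins, tropomodulins and Eps8 proteins, had a median of -0.18, beside 0.02 for all kept genes, and 5 of the 6 kept genes were lower in NOD.L7. Add1, the most abundant, was at 98.1 and 86.0. Add2, the beta-adducin gene of the red cell membrane skeleton, was at 1.69 and 0.498, 3.38-fold lower, with a log2 ratio of -0.84. Tmod1, the red cell tropomodulin gene, was below the filter at 0.992 and 0.244 and is named after its values were seen. Red cell genes were lower in the same library: every one of the 12 kept erythroid markers had a negative log2 ratio, the median was -1.0, and their summed RPKM was 173 and 80.9. The part of red cell content in the values of Add2 and Tmod1 was not tested.

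Transcripts for filament turnover by cofilin and its partners were nearly level by their median, and turnover itself was not measured. Of 16 kept genes 9 were higher and 7 lower, with a median of 0.02, and the most abundant was Coro1a, which encodes the leukocyte coronin, at 907 and 801. The 9 kept subunits of the Arp2/3 complex, which starts branches, had a median of -0.01, and Arpc2 was at 289.6 and 281. Nucleation promoting factors had a median of -0.002 over 11 kept genes, and Hcls1, the leukocyte cortactin relative, was at 191 and 208. Monomer binding and elongation factors had a median of 0.001 over 11 kept genes, and Tmsb4x, for thymosin beta 4, was at 3003 and 2958. The highest ratio of any actin gene outside the set, 0.44, was that of the profilin gene Pfn2, at 1.62 and 2.55.

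CapZ is also a part of dynactin, where it is bound to a short actin-like filament, and of the WASH complex. All 14 listed genes of these complexes were kept, with 6 positive and 8 negative log2 ratios and a median of -0.01. Actr1a, the main subunit of the dynactin filament, was at 49.6 and 48.7. The actin genes themselves had 3 kept members with a median of 0.12, led by Actb. One of them, Actg2 (0.663 and 1.01), was kept only through its NOD.L7 level. Acta1, Acta2 and Actc1 were below the filter, each with a lower value in NOD.L7, so the median leans on the filter.

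**Figure D4:**
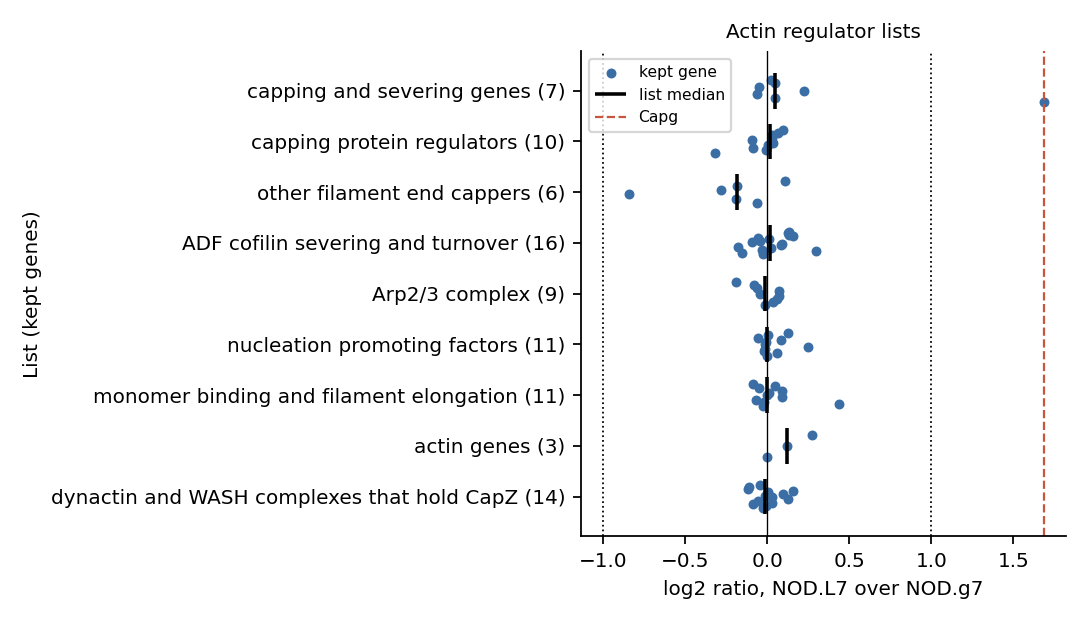
Log2 ratio of each kept gene (points) in the 8 genes of the set and in 8 lists of other actin genes, with the list median (black bar), the number of kept genes in brackets and the value of Capg (dashed red line at 1.69). Dotted lines mark the size rule. No gene of the other lists lies beyond 0.44 on the upper side, and Add2 is lowest at -0.84.

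Markers of myeloid cells were higher in the same library as Capg. Each of the 22 kept monocyte and macrophage markers had a positive log2 ratio, and the median was 0.54 beside 0.02 for all kept genes. Of the 22, 3 passed the size rule upward, beside 0.386% of all kept genes. None was listed at 0, and their summed RPKM was 1209 and 1541, 1.28-fold. Cd14, the lipopolysaccharide co-receptor, was at 7.64 and 29.1, Cd163 at 5.26 and 13.0, and Vcam1 at 43.8 and 91.5. Of the 22, Cd14 alone had a ratio at least as high as that of Capg, which exceeded the list median by 1.15. The part of myeloid content in the Capg value was not tested.

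Neutrophil markers were higher in 11 of 13 kept genes, with a median of 0.45 and a sum of 902 and 1179. Of the 13, 3 passed the size rule upward (0.386% of all kept genes). Cxcr2 (15.6 and 37.1), Trem1 (2.57 and 6.76) and Retnlg (16.4 and 36.8) were those past the rule, and none of the 13 reached the ratio of Capg. The granule protein genes Camp (39.1 and 34.5) and Ltf (29.0 and 28.4) were the 2 lower in NOD.L7, and Ngp was nearly equal (68.8 and 70.2). S100a9, the most abundant of the 13, was at 416 and 570. Markers of basophils, mast cells and eosinophils were higher in 6 of 8 kept genes, with a median of 0.47, and Hdc, the histidine decarboxylase gene, was at 5.20 and 26.4. Leaving Hdc aside, 5 of 7 kept markers were higher, among them Fcer1a (0.282 and 1.28), Ms4a2 (0.856 and 1.99) and Cpa3 (1.42 and 2.85). Fcer1a and Ms4a2 were kept only through their NOD.L7 level, so in both counts they could only fall on the higher side. About 13 and 77 fragments stood behind Fcer1a. The other 2, Cma1 (3.48 and 1.36) and Il5ra (5.30 and 4.11), were lower in NOD.L7. The list's sum was low, at 22.9 and 46.2, and nearly all of its difference came from Hdc, without which it was 17.7 and 19.8.

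The remaining lists were mixed, close to 0 or lower. Dendritic cell markers had 5 of 10 kept genes higher and a median of 0.11, with Cd8a (53.7 and 31.7), which T cells also express, and Ccr9 (11.3 and 6.34) lower and Batf3 higher (3.86 and 6.37). Platelet markers had a median of 0.17 over 6 kept genes, and Ppbp was at 6.16 and 10.1. Stroma and endothelium had 3 kept markers of 14 in the table, with a median of 0.09 and sums of 77.0 and 75.9. Pecam1 made up nearly all of that, at 72.7 and 71.2. T cell markers had a median of 0.09, with Trat1 (26.6 and 36.3) furthest from 0. B cell markers had a median of -0.26, with Fcer2a at 257 and 132. NK cell markers were lower in 10 of 10, with a median of -0.75, and Gzma was at 79.9 and 26.3. Past the size rule downward were 2 of the 10 NK cell markers and 6 of the 12 erythroid markers, beside 0.323% of all kept genes.

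**Figure D5:**
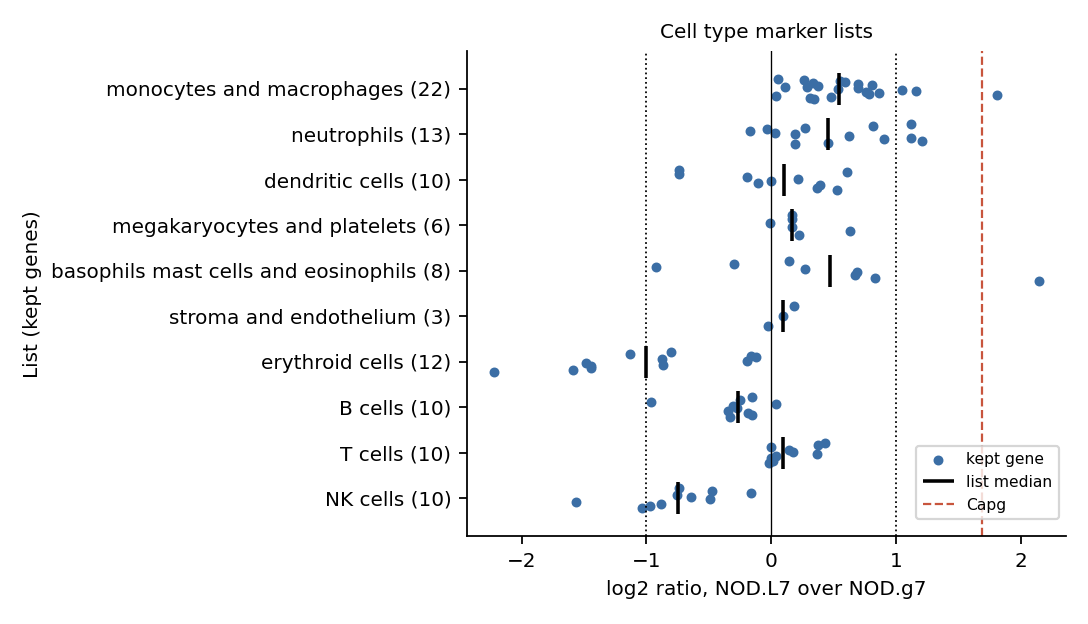
Log2 ratio of each kept marker gene (points) for 10 cell types, with the list median (black bar), the number of kept genes in brackets and the value of Capg (dashed red line at 1.69). Dotted lines mark the size rule. Cd14 and Hdc are the markers to the right of the line, and the medians run from -1.0 for erythroid cells to 0.54 for monocytes and macrophages.

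The genes most like Capg in both level and difference were Vcam1, C1qa, Trf, C1qb and Il1b, of which Vcam1, C1qa and C1qb were on the monocyte and macrophage list. Likeness was the distance between 2 genes over the log2(RPKM + 1) values of the 2 libraries, which is a description over 2 points and uses the values that chose Capg. Nearest was Vcam1, at a distance of 0.47. Next came C1qa (0.64), which encodes a chain of complement C1q and was at 52.1 and 90.3. Trf (0.65), the transferrin gene, was at 50.6 and 86.7. C1qb (0.71) was at 40.7 and 74.9, and Il1b (0.73), for interleukin-1 beta, at 29.4 and 77.9. All 5 had a smaller ratio than Capg, from 0.77 for Trf to 1.38 for Il1b.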

How the data were processed

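Spleen RNA was sequenced as 1 TruSeq library per genotype after RNeasy column extraction, per the labels' protocols. The authors deposited 1 table of RPKM values per gene. Per the submitters' processing notes, build mm9, CASAVA 1.8.2 and SAMtools 0.1.18 were involved. Aligner settings, gene models and strandedness: not given in the sources used here.

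Log2 ratios used a pseudocount of 1 RPKM, which understates changes of low genes. With 1 library per group no test was made, and a size rule (RPKM of at least 1 in either library, absolute log2 ratio of at least 1) took its place. Named were all 8 genes, listed actin genes with a ratio of 0.5 or more or the highest level, 5 neighbours on either side of Capg, the 5 most alike genes and up to 3 markers per cell type. Further genes are named after their values were seen. The genes and lists were chosen with earlier results of these data known. Older symbols were matched through RefSeq synonyms (11 genes).

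Depth came from 124 and 131 low values of single-exon genes under 2500 bases, all within 0.15 of a whole number of sequenced bases. Fragments were approximated from the longest GENCODE M21 transcript at 200 bases each, with exact binomial (Clopper-Pearson) 95% intervals for counting error only. Scripts were tested on simulated data and used Python 3.11.15, numpy 2.4.6, pandas 2.3.3 and scipy 1.17.1. Alternatives were other pseudocounts, other filters, median centring and an unweighted TMM factor (trimming 30% by ratio and 5% by level).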

Additional observations from a re-analysis of the deposited data

How the results depend on the processing

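With 1 library per genotype no replicate could be left out, and no setting shows how values vary between mice. No paired analysis was possible because neither group holds more than 1 library. Capg kept its direction and stayed past the size rule under all 6 alternatives, with log2 ratios from 1.67 to 1.71. It remained the 1 gene of the set past the rule, and the log2 ratios of the other 6 kept genes moved by less than their counting intervals where they were still kept. Scin was kept in 1 of the alternatives, the one with no filter, where its ratio was the same by construction. The count of all kept genes past the rule was 166 with a pseudocount of 0.1 and 124 with 0.5, which admit lower genes by construction, and 52 at a filter of RPKM 5, which keeps fewer genes, against 79. Depth limits Scin most.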

Other observations

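Several actin regulators come as related forms, in some cases with a form that blood cells favour. The balance between the forms was compared between the libraries. The pairs were chosen after their values were seen. For the Arp2/3 subunit pair, Arpc1b made up 89.2% of the summed RPKM of Arpc1b and Arpc1a in NOD.g7 and 89.3% in NOD.L7. Nckap1l, which encodes the blood-cell form (Hem1) of a WAVE complex subunit, made up 98.7% and 98.3% of its pair with Nckap1. Was, the gene mutated in Wiskott-Aldrich syndrome, made up 90.0% and 89.6% of its pair with Wasl. Gmfg made up 60.2% and 61.1% with Gmfb, and Twf2 made up 82.6% and 82.8% with Twf1. The coronin pair shifted most of these, with Coro1a at 89.1% and 87.2% of its sum with Coro1b. Cfl1 (99.1% and 99.2% with Cfl2), Pfn1 (99.9% and 99.8% with Pfn2) and Cap1 (99.8% in both with Cap2) were nearly the sole forms. Where the share of a form is this close to the whole, it can hide a change in the rarer form. Nckap1 itself was at an RPKM of 1.64 and 2.13, and Pfn2 at 1.62 and 2.55.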
